A study of Mus musculus with 6 samples.

Results

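Transforming growth factor beta (TGF-beta) ligands, receptors and latency proteins were examined in C2C12 cells, an established mouse myoblast line. The set holds 10 genes of the 22375 rows of the deposited expression table, chosen by gene symbol: the ligands Tgfb1, Tgfb2 and Tgfb3, the signalling receptors Tgfbr1 and Tgfbr2, the co-receptor Tgfbr3, and the latent TGF-beta binding proteins Ltbp1, Ltbp2, Ltbp3 and Ltbp4. The CON group was 3 libraries of unstretched cells, and the 4H group was 3 libraries of cells stretched cyclically at 15% elongation for 4 h. Both groups were cells of this 1 line, cultured on elastic plates in medium with serum, and no inhibitor or knockdown was part of these libraries. The study used stretched C2C12 cells as a culture model of the mechanical load on the diaphragm during ventilation with high end-expiratory pressure, and the comparison asks which mRNAs differ after 4 h of that load. Replicate numbers are the biosample numbers of the labels, by which 4H replicates 1, 2 and 3 are the libraries titled 4H1, 4H3 and 4H4. The labels do not say whether the libraries of a group came from separate cultures, so the p-values measure only the spread between these libraries, which may be technical.

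TGF-beta is made as a precursor that is cut by furin into a mature dimer and its own propeptide. The propeptide stays wrapped around the dimer and keeps it inactive, and in most cells a latent TGF-beta binding protein is joined to it and tethers the complex to fibrillin and fibronectin in the matrix. Integrins that pull on the propeptide, and proteins such as thrombospondin-1, can release the dimer, which then binds TGFBR2. TGFBR2 phosphorylates TGFBR1, and TGFBR1 phosphorylates SMAD2 and SMAD3, which enter the nucleus with SMAD4. In skeletal muscle TGF-beta is known to hold back myoblast differentiation and to promote deposition of collagen by fibroblasts.

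The promoters of Tgfb1 and Tgfb2 are shown because both of these ligand mRNAs were higher in the 4H group and yet their start regions are built differently. RefSeq (GRCm38.p6) gives start windows for 8 of the 10 genes, 12 windows in all. The stretch printed is the 250 bases before the annotated start, 5′ to 3′ on the strand of the gene. For Tgfb1 it is chr7:25686752-25687001 on the plus strand, and for Tgfb2 it is chr1:186705990-186706239 on the minus strand. In the GENCODE M21 annotation no other gene shares exonic bases with Tgfb1, and the antisense gene Gm29491 shares 124 exonic bases with Tgfb2 on the other strand. Capitals mark every match, on either strand, to 7 short motifs. These were GGGCGG for the GC box that SP1 binds, TATAAA for the box of the TATA-binding protein, CAGACA for SMAD proteins, TGANTCA for the AP-1 factors, TGACGTCA for factors of the CREB family, GGAATG for TEAD factors, and by its name the CArG box of serum response factor.
Tgfb1: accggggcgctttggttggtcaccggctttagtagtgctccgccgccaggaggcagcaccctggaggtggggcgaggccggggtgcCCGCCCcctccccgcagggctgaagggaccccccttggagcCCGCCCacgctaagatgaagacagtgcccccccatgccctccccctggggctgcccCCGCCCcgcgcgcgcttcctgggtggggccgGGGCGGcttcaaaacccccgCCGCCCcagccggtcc
Tgfb2: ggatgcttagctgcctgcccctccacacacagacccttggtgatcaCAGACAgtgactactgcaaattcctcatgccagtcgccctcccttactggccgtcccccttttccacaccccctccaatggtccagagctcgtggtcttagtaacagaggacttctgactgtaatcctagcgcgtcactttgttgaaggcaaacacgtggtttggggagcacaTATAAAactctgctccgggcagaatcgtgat
The Tgfb1 stretch was 75.2% G and C and held 5 GC boxes, at 164, 123, 67, 36 and 16 bases before the start, and no TATAAA. The Tgfb2 stretch was 53.6% G and C and held TATAAA at 31 bases and CAGACA at 204 bases before the start, and no GC box. Across all 32851 windows of this length, 32.7% held a GC box, 12.4% TATAAA and 17.1% CAGACA. None of the 12 windows of these genes held TGANTCA (6.75% of all windows), GGAATG (12.6%) or a CArG box (1.47%), and 1 window of Ltbp1 held TGACGTCA (1.55%). These are matches of letters only, and no binding was measured.

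Expression was given as FPKM, a fragment count scaled for transcript length and library size, so that levels of different genes can be compared per length. All 10 genes were expressed, from 1.26 FPKM for Tgfb2 to 46.9 FPKM for Ltbp1 in the CON group, and all passed the filter of a mean of 0.5 FPKM in both. At an adjusted p of at most 0.05 (limma on log2(FPKM + 0.5), two-sided, Benjamini-Hochberg adjustment over 11593 genes), 5 of the 10 were higher in the 4H group (Tgfb1, Tgfb2, Tgfbr1, Ltbp1 and Ltbp2), 2 were lower (Tgfbr3 and Ltbp4), and 3 did not pass (Tgfb3, Tgfbr2 and Ltbp3). Over all genes tested, 22.6% were called higher and 24.1% lower by the same rule. None of the 10 reached the fold threshold of the study as well, a log2 fold change of 1 or more in size, which 3.88% of all genes tested did. Tgfb2 reached it with a pseudocount of 0.1 (log2 fold change 1.02) or after rescaling to TPM (1.00). The median log2 fold change of the 10 was 0.15 beside -0.01 over all genes tested. The 10 were chosen with earlier results of these data known, so these counts only describe them. Tgfb1 and Tgfbr1 are among the genes that the study selected on these same samples, so their direction is not independent evidence.

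**Figure D1:**
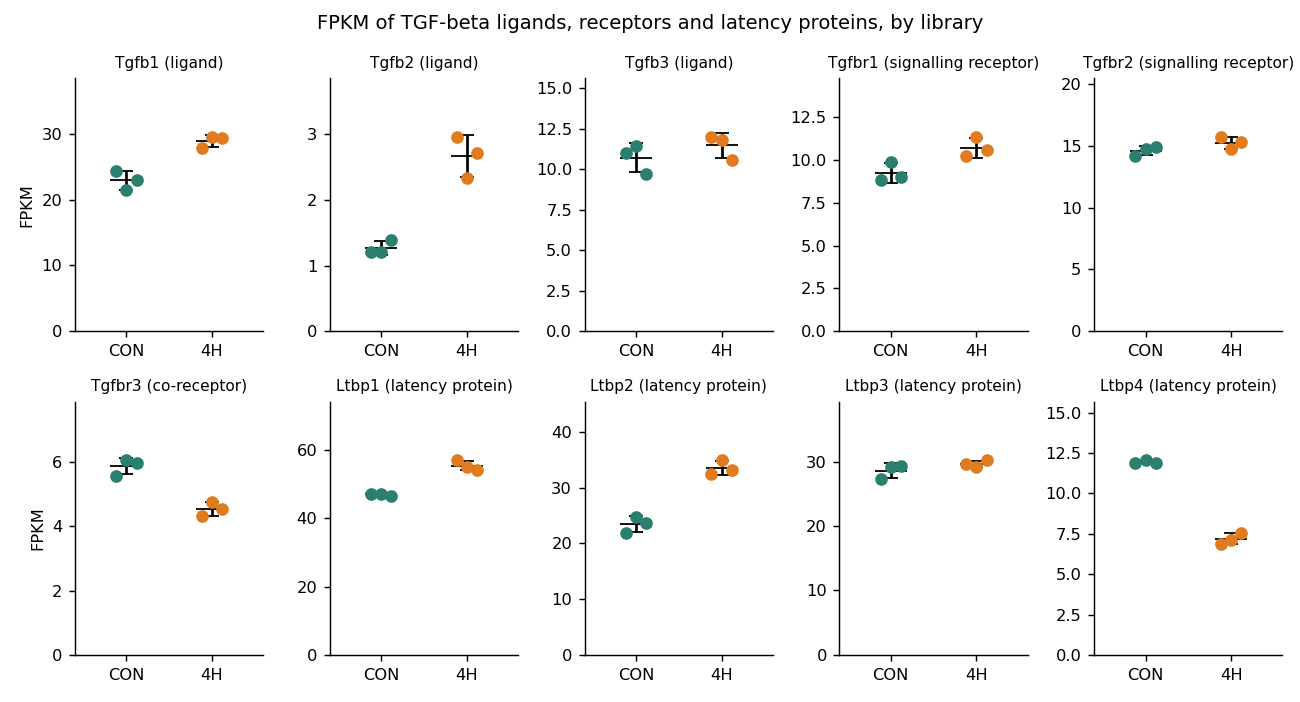
FPKM of each of the 10 genes in the 3 CON and 3 4H libraries (points), with the group mean and SD (bars). Each panel has its own linear axis from 0. The groups do not overlap for Tgfb1, Tgfb2, Tgfbr1, Ltbp1 and Ltbp2 (4H above) or for Tgfbr3 and Ltbp4 (4H below).

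Among the ligands, Tgfb1 (ENSMUSG00000002603, chr7:25687002-25705077, plus strand, mm10), the main isoform of fibrotic tissue, was at 24.4, 21.4 and 23.0 FPKM in the CON libraries and 27.9, 29.6 and 29.4 FPKM in the 4H libraries. Every 4H library was above every CON library. The mean rose from 22.9 ± 1.49 to 29.0 ± 0.914 FPKM (SD, n = 3 each), a ratio of 1.26 and a log2 fold change of 0.33 (SE 0.05, limma adjusted p = 0.00142).

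Tgfb2 (ENSMUSG00000039239, chr1:186622792-186705989, minus strand) encodes an isoform with a central part in heart and palate development. It was the lowest of the 10 in both groups, at 1.20, 1.21 and 1.39 FPKM in the CON libraries and 2.96, 2.33 and 2.72 FPKM in the 4H libraries. The groups were separated by a gap of 0.942 FPKM. The mean rose from 1.26 ± 0.107 to 2.67 ± 0.320 FPKM (n = 3 each), a ratio of 2.11. Its log2 fold change of 0.84 (SE 0.11, 95% interval 0.58 to 1.10, limma adjusted p = 0.000502) was the highest of the 10 and lay at percentile 96.2 of all genes tested, while its level lay at percentile 11.9. The pseudocount of 0.5 FPKM pulls the fold of so low a gene towards 0, which is why the ratio of means exceeds 2 while the log2 value is below 1. The antisense gene Gm29491 shares exonic bases with it on the other strand. The libraries were prepared to keep strand, but whether the counting used it is not given in the sources used here.

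Tgfb3 (ENSMUSG00000021253, chr12:86056745-86079041, minus strand), the isoform best known from palate fusion, was at 10.97, 11.4 and 9.71 FPKM in the CON libraries and 12.0, 11.8 and 10.6 FPKM in the 4H libraries. The groups overlapped. The log2 fold change was 0.10 (SE 0.08, 95% interval -0.08 to 0.27, limma adjusted p = 0.347).

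Among the receptors, Tgfbr1 (ENSMUSG00000007613, chr4:47353222-47414931, plus strand), the type I kinase that phosphorylates SMAD2 and SMAD3, was at 8.84, 9.92 and 9.01 FPKM in the CON libraries and 10.2, 11.4 and 10.6 FPKM in the 4H libraries. The lowest 4H library stood only 0.322 FPKM above the highest CON library. The mean went from 9.26 ± 0.579 to 10.7 ± 0.578 FPKM (n = 3 each), with a log2 fold change of 0.20 (SE 0.07, limma adjusted p = 0.0357). This call was lost without CON replicate 1 (adjusted p = 0.108), CON replicate 3 (0.101), 4H replicate 2 (0.112) or 4H replicate 3 (0.0699).

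Tgfbr2 (ENSMUSG00000032440, chr9:116084293-116175360, minus strand), the type II kinase that binds the ligand, was at 14.2, 14.7 and 14.9 FPKM in the CON libraries and 15.7, 14.8 and 15.3 FPKM in the 4H libraries. The groups overlapped. The log2 fold change was 0.06 (SE 0.05, 95% interval -0.05 to 0.17, limma adjusted p = 0.327). The log2 ratio of Tgfbr2 to Tgfbr1 within a library was 0.66 ± 0.08 in the CON group and 0.51 ± 0.12 in the 4H group, a difference of -0.15 (exact permutation test over the 6 libraries, two-sided, p = 0.2), and without 4H replicate 2 the difference was -0.08. With 3 libraries against 3 the smallest p that this exact test allows is 0.1.

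Tgfbr3 (ENSMUSG00000029287, chr5:107106570-107289629, minus strand) encodes betaglycan, a co-receptor without a kinase that presents ligands, TGF-beta 2 above all, to the type II receptor. It was at 5.59, 6.06 and 5.98 FPKM in the CON libraries and 4.32, 4.76 and 4.55 FPKM in the 4H libraries. Every 4H library was below every CON library. The mean fell from 5.87 ± 0.252 to 4.54 ± 0.216 FPKM (n = 3 each), a ratio of 0.774 and a log2 fold change of -0.34 (SE 0.07, limma adjusted p = 0.00532). The gene shares exonic bases with Gm43422 on the same strand, and 3.48% of its 75-base stretches recur in transcripts of another gene, and the part of reads from that model in its value was not tested. In bulk RNA a lower level may come from less RNA per cell or from fewer cells that express the gene, and these cannot be told apart.

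Among the latency proteins, Ltbp1 (ENSMUSG00000001870, chr17:75005568-75392512, plus strand), which binds the propeptide covalently, was the highest of the 10 genes in both groups. It was at 47.2, 47.0 and 46.6 FPKM in the CON libraries and 56.9, 55.1 and 54.2 FPKM in the 4H libraries. The groups were 6.99 FPKM apart, against SDs of 0.295 FPKM (CON) and 1.39 FPKM (4H). The mean went from 46.9 to 55.4 FPKM (n = 3 each), a log2 fold change of 0.24 (SE 0.03, limma adjusted p = 0.000586).

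Ltbp2 (ENSMUSG00000002020, chr12:84783212-84876532, minus strand) differs from its relatives in that it does not bind latent TGF-beta and sits on elastic microfibrils. It was at 21.9, 24.7 and 23.7 FPKM in the CON libraries and 32.4, 34.9 and 33.2 FPKM in the 4H libraries. All 4H libraries were above all CON libraries, by at least 7.74 FPKM. The mean rose from 23.4 ± 1.42 to 33.5 ± 1.25 FPKM (n = 3 each), a ratio of 1.43 and a log2 fold change of 0.51 (SE 0.05, limma adjusted p = 0.000129). The antisense gene D030025P21Rik shares exonic bases with it on the other strand.

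Ltbp3 (ENSMUSG00000024940, chr19:5740904-5758532, plus strand), which like Ltbp1 joins the propeptide covalently, was at 27.3, 29.1 and 29.4 FPKM in the CON libraries and 29.6, 29.1 and 30.2 FPKM in the 4H libraries. The groups overlapped. The log2 fold change was 0.05 (SE 0.04, 95% interval -0.05 to 0.15, limma adjusted p = 0.358).

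Ltbp4 (ENSMUSG00000040488, chr7:27305136-27337692, minus strand), known for its part in elastic fibre assembly and as a modifier of muscular dystrophy in mice, fell the most of the 10. It was at 11.9, 12.0 and 11.9 FPKM in the CON libraries and 6.89, 7.13 and 7.58 FPKM in the 4H libraries. The CON libraries were close together, and the groups were 4.32 FPKM apart. The mean fell from 11.9 ± 0.0828 to 7.20 ± 0.349 FPKM (n = 3 each), a ratio of 0.602 and a log2 fold change of -0.69 (SE 0.06, 95% interval -0.82 to -0.56, limma adjusted p = 3.07e-05), at percentile 2.89 of all genes tested. No other gene of GENCODE M21 shares its exons.

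**Figure D2:**
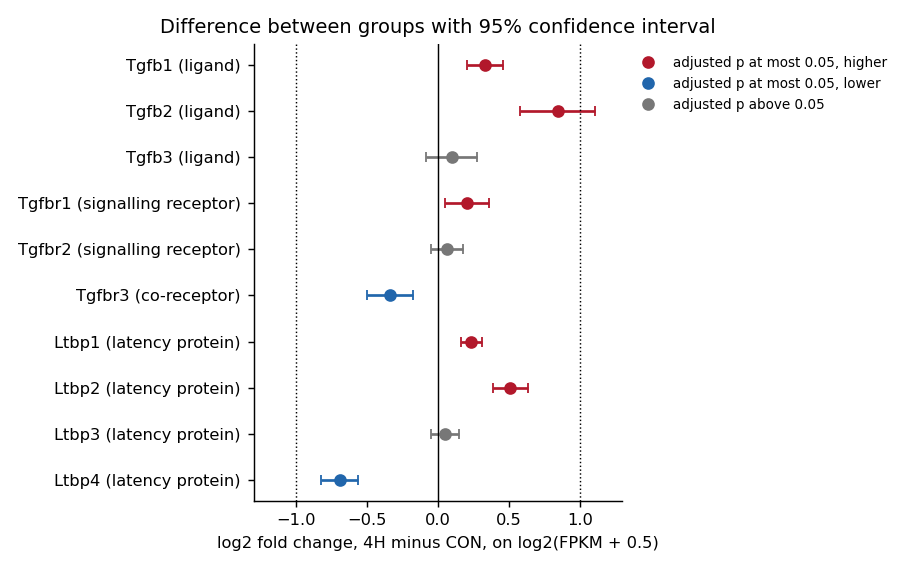
Log2 fold change of 4H against CON for each of the 10 genes on the log2(FPKM + 0.5) scale, with the 95% confidence interval of limma. Dotted lines mark a log2 fold change of 1 in either direction, which no gene reached at the pseudocount of 0.5. Tgfb2 at 0.84 and Ltbp4 at -0.69 lie farthest from 0, and the intervals of Tgfb3, Tgfbr2 and Ltbp3 include 0.

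In the 7 genes called, the groups did not overlap, with the 4H group above in 5 and below in 2. Over all genes tested, 27.5% had every 4H library above every CON library and 29.2% had every 4H library below. Between libraries of a group the coefficient of variation of the 10 genes ran from 0.629% for Ltbp1 in the CON group to 12.0% for Tgfb2 in the 4H group.

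The order of levels differed between the groups in the place of Ltbp2 and Ltbp4. In the CON group the order from high to low was Ltbp1, Ltbp3, Ltbp2, Tgfb1, Tgfbr2, Ltbp4, Tgfb3, Tgfbr1, Tgfbr3 and Tgfb2. In the 4H group Ltbp2 stood above Ltbp3, and Ltbp4 stood below Tgfb3 and Tgfbr1. The neighbours whose libraries overlapped were Ltbp2 with Tgfb1 and Tgfb3 with Tgfbr1 in the CON group, and Ltbp3 with Tgfb1 and Tgfb3 with Tgfbr1 in the 4H group.

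The make-up of the ligand and latency protein mRNA was then compared as shares within a library, which a single scaling factor per library does not change. The summed FPKM of the 3 ligands went from 34.9 ± 1.42 to 43.1 ± 0.522, and that of the 4 Ltbp genes from 110.9 ± 2.37 to 125.7 ± 0.583 (n = 3 each). Tgfb1 made up most of the ligand sum in both groups, 65.7 ± 2.47% in CON and 67.2 ± 1.93% in 4H (exact permutation p = 0.5). The share of Tgfb2 was 3.28, 3.54 and 4.06% in the CON libraries and 6.91, 5.33 and 6.37% in the 4H libraries. That of Tgfb3 was 30.0, 33.6 and 28.5% in the CON libraries and 28.0, 27.0 and 24.7% in the 4H libraries. The groups did not overlap for either share, which gives the smallest p the exact test allows (p = 0.1 for each, 0.14 after adjustment over the 7 shares), so neither share can pass 0.05 in this design.

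Among the latency proteins the share of Ltbp4 was 11.0, 10.7 and 10.7% in the CON libraries and 5.48, 5.65 and 6.06% in the 4H libraries. The share of Ltbp2 was 20.2, 21.9 and 21.2% in the CON libraries and 25.8, 27.6 and 26.5% in the 4H libraries. The gap between the means was -5.05 percentage points for Ltbp4 and 5.54 for Ltbp2, with no overlap in either. Ltbp3 went from 25.8 ± 0.554 to 23.6 ± 0.524%, also without overlap (exact permutation p = 0.1, adjusted 0.14, for each of these 3). Ltbp1 was at 42.3 ± 1.06% and 44.1 ± 1.01%, with overlap (exact permutation p = 0.2, adjusted 0.233). The log2 ratio of the Ltbp sum to the ligand sum was 1.67 ± 0.09 in CON and 1.54 ± 0.01 in 4H, a difference of -0.12 without overlap (exact permutation p = 0.1). After quantile normalization the difference was -0.10 (exact permutation p = 0.2). The Ltbp sum includes Ltbp2, which does not bind latent TGF-beta and went from 23.4 to 33.5 FPKM. This ratio is therefore not one of ligand-binding latency protein to ligand, and no ratio without Ltbp2 was computed.

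**Figure D3:**
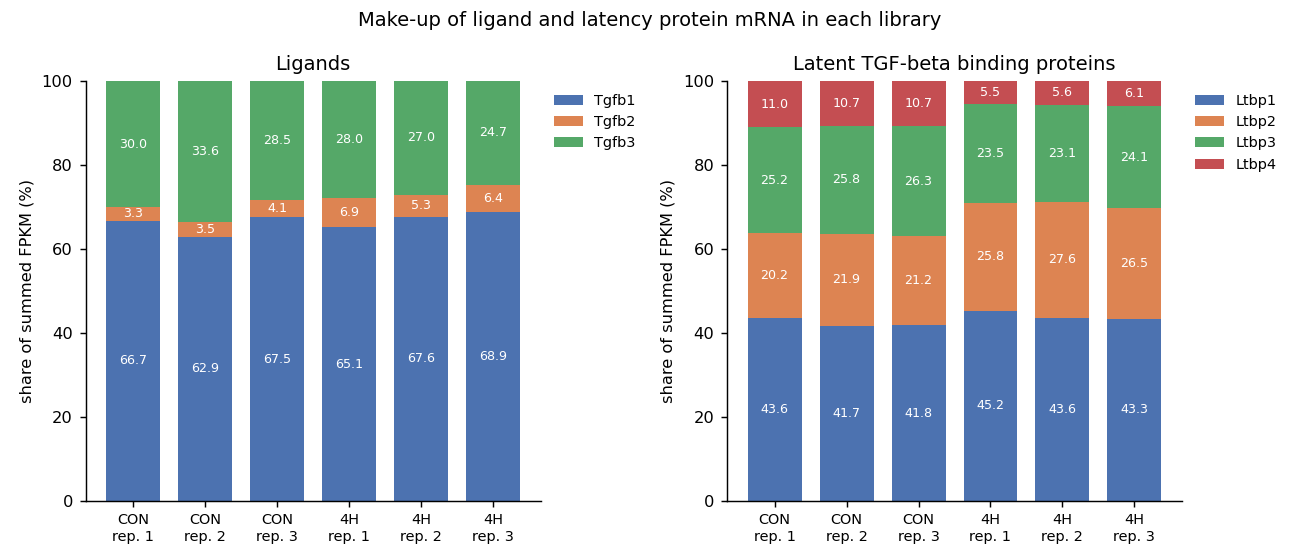
Share of each ligand in the summed ligand FPKM (left) and of each Ltbp gene in the summed Ltbp FPKM (right), in percent, 1 bar per library. Ltbp4 takes 10.7 to 11.0% of the Ltbp sum in the CON libraries and 5.48 to 6.06% in the 4H libraries, and Tgfb2 takes 3.28 to 4.06% and 5.33 to 6.91% of the ligand sum.

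The rest of the pathway was described by 6 lists with 75 genes in all, each counted once, of which 60 passed the filter. At an adjusted p of at most 0.05 (limma), 34 of the 60 were higher in the 4H group, 9 were lower and 17 did not pass, and 12 also reached an absolute log2 fold change of 1. Over all genes tested the shares by these rules were 22.6% higher, 24.1% lower and 3.88% past the fold threshold. Of the genes called higher, Itgb6 and Il11 (means of 0.123 and 0.292 FPKM in CON), named after their values were seen, passed the filter only through their level in 4H, so their tests and their part in the counts and medians carry no weight. When 1 FPKM was required instead, 32 were higher and 9 lower. The median log2 fold change of the 60 was 0.22 beside -0.01 over all genes tested. The lists were chosen with earlier results of these data known, so these counts and this median only describe them. The 15 genes under the filter were Mmp9, Itgb8, Fbn2, Eln, Emilin1, Lrrc32, Nrros, Fmod, Acvr1c, Acvrl1, Amhr2, Bambi, Tgfbi, Cdkn2b and Postn.

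Of the 13 genes of processing and activation, 11 were tested, 8 were higher, Itgb6 among them, and 2 lower (median log2 fold change 0.30). Itgb3, the beta subunit of an integrin that binds the TGF-beta propeptide, rose from 2.29 ± 0.149 to 13.9 ± 0.375 FPKM (log2 fold change 2.37, limma adjusted p = 1.37e-07). Thbs1, thrombospondin-1, rose from 44.1 ± 3.27 to 181.9 ± 2.00 FPKM (2.04, adjusted p = 8.18e-08). Itgb5, the beta subunit of another integrin that binds the propeptide, fell from 35.8 ± 2.65 to 23.5 ± 1.21 FPKM (-0.60, adjusted p = 0.000114). Furin, the protease that cuts the precursor, is outside the rule for named genes and was added after its values were seen. It rose from 28.0 ± 0.608 to 42.1 ± 0.616 FPKM (0.58, adjusted p = 6.17e-06).

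Of the 12 matrix and cell surface anchors, 6 were tested, with 2 higher, 2 lower and 2 not passing (median 0.07). Fbln5, fibulin-5 of elastic fibres, fell from 14.7 ± 2.60 to 2.71 ± 0.256 FPKM (log2 fold change -2.23, limma adjusted p = 4.67e-06). Bgn, the small proteoglycan biglycan, fell from 464.6 ± 10.3 to 379.6 ± 3.67 FPKM (-0.29, adjusted p = 5.02e-05). Efemp2, fibulin-4, rose from 45.3 ± 1.82 to 50.2 ± 0.832 FPKM (0.15, adjusted p = 0.0144). Fbn1, the microfibril protein to which latent complexes are anchored and named as background, was at 23.8 ± 0.452 and 24.2 ± 0.933 FPKM (0.02, adjusted p = 0.728). The proteins of Fbln5 and of Ltbp4, which also fell, are known to bind each other in elastic fibre assembly. Eln, the elastin gene, was at 0 in every library, and Efemp2 and Ltbp2 were higher, so these genes did not share a direction.

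Of the 11 related receptors of activins, BMPs and endoglin, 8 were tested, 3 were higher and 5 did not pass (limma, median log2 fold change 0.09). Those 3 were Acvr1, a type I receptor of BMPs, from 21.5 ± 0.543 to 32.0 ± 1.39 FPKM (0.56, adjusted p = 3.05e-05), Bmpr1b (0.49, adjusted p = 0.0153, and 0.0517 without 4H replicate 3) and Bmpr2 (0.30, adjusted p = 0.00230). Of the 13 regulators of the receptors, 12 were tested, 7 were higher and 1 lower (median 0.17). Pmepa1, which binds SMAD2 and SMAD3 and limits signalling, rose from 14.7 ± 0.711 to 33.1 ± 0.943 FPKM (1.15, limma adjusted p = 9.24e-07). Smad7, the inhibitory SMAD that leads ubiquitin ligases to TGFBR1, rose from 9.72 ± 0.308 to 20.0 ± 0.855 FPKM (1.01, adjusted p = 2.56e-06). Nedd4l, such a ligase, was at 12.9 ± 1.08 and 16.4 ± 2.47 FPKM (0.34, adjusted p = 0.0300). Its call was lost in 6 of 16 alternatives, among them without CON replicate 1 (adjusted p = 0.0977), CON replicate 2 (0.0596) or 4H replicate 1 (0.0561), where the log2 fold change without 4H replicate 1 was 0.22.

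Of the 6 SMAD transducers and their partners, all were tested, 2 were higher, 1 was lower and 3 did not pass (limma, median 0.20). Skil, the SnoN repressor of SMADs, rose by 0.75 on the log2 scale (17.0 ± 4.45 and 28.2 ± 1.05 FPKM, adjusted p = 0.00406), and Smad3 by 0.32 (5.98 ± 0.159 and 7.62 ± 0.562 FPKM, adjusted p = 0.00636). Smad4, the shared partner SMAD, was at 30.3 ± 0.937 and 26.7 ± 2.08 FPKM (-0.18, adjusted p = 0.0353). Its call was lost in 8 of 16 alternatives, where the adjusted p reached 0.109, among them the omission of any 1 CON library or of 4H replicate 2 or 3.

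Of the 24 genes known to respond to TGF-beta, 21 were tested, 16 were higher, Il11 among them, and 3 lower, and 8 also reached an absolute log2 fold change of 1 (median 0.76). Ccn2, connective tissue growth factor, rose from 7.18 ± 0.709 to 48.1 ± 2.77 FPKM (log2 fold change 2.66, limma adjusted p = 1.22e-07). Id1, a target of BMP signalling, rose from 30.5 ± 3.47 to 78.1 ± 10.2 FPKM (1.34, adjusted p = 2.09e-05). The 3 genes that fell, named after their values were seen, were the collagen genes Col1a2 (-0.41, adjusted p = 1.29e-05) and Col3a1 (-0.37, adjusted p = 0.000341) and the repressor gene Snai2 (-1.17, adjusted p = 6.45e-07). Several genes of this list also respond to other stimuli such as serum and load, and no TGF-beta or inhibitor was added here. Acta2 and Tgfb1i1 of this list, and Itgb1, Itgav and Itgb3 of the activation list, are also among the genes that the study selected on these samples.

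**Figure D4:**
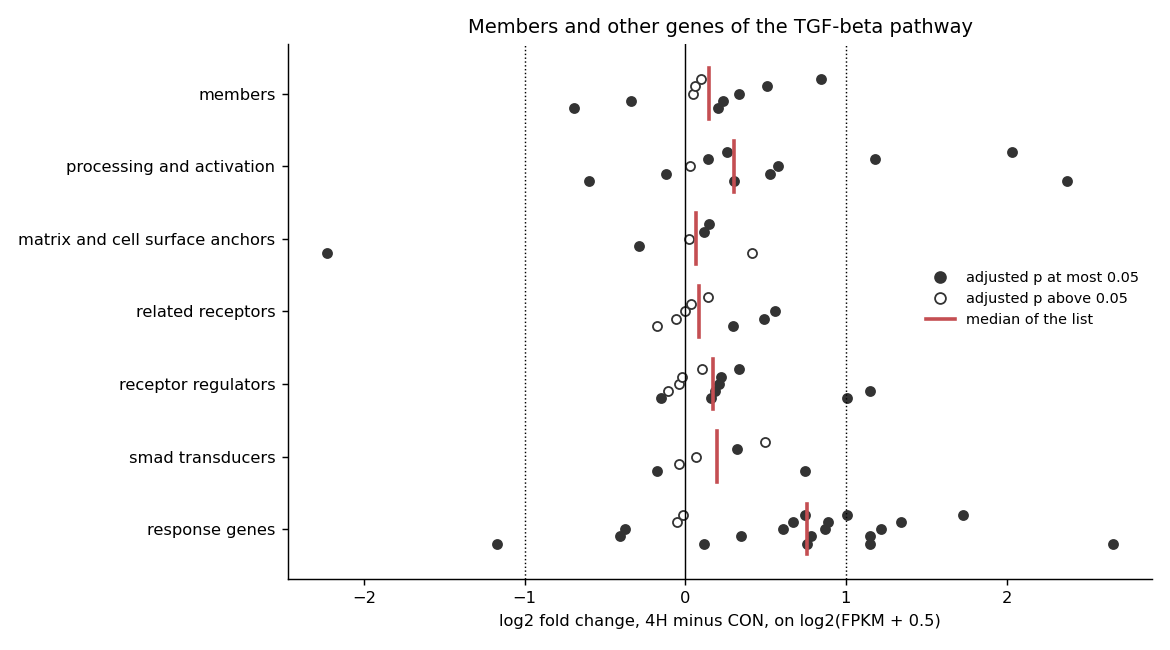
Log2 fold change of 4H against CON for every tested gene of the 10-gene set (members) and of the 6 other pathway lists, with filled points at an adjusted p of at most 0.05 (limma) and a bar at the median of each list. Most response genes lie to the right of 0 (median 0.76), while the 10 members lie between -0.69 and 0.84.

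The genes most like the members with the largest changes were sought among genes averaging 5 FPKM or more, by Pearson correlation of log2(FPKM + 0.5) over the 6 libraries. For Tgfb2 these were Igfbp2 (0.998), Cript (0.998) and Selenos (0.997), and for Ltbp4 they were Tbpl1, Acot2 and Slc25a39 (0.999 each). The 6 points form 2 groups, so the correlation mostly reflects the difference between groups, and 853 of 8584 genes exceeded 0.95 for Tgfb2 and 1002 of 8583 for Ltbp4.

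The identity of the cells was checked with marker lists. Of 8 myoblast markers 7 passed 0.5 FPKM, Pax7 being the exception, and their sum ran from 176 to 180 FPKM in the CON libraries and from 264 to 277 in the 4H libraries. Of these 7, 6 were higher in 4H at an adjusted p of at most 0.05 (limma), among them Myod1 (5.13 ± 0.573 and 18.2 ± 0.738 FPKM, adjusted p = 1.56e-06), and Myf5 was lower (15.8 ± 0.851 and 9.82 ± 1.13 FPKM, adjusted p = 0.000347). Of 10 markers of muscle differentiation 2 passed, with Myh8, Mymx and Actn2 at 0, and their sum was 3.29 to 4.77 and 3.70 to 5.65 FPKM. Of those that passed, Mymk was higher in 4H (0.525 ± 0.165 and 1.01 ± 0.120 FPKM, limma adjusted p = 0.0194). Tnnc1, the highest gene of this list, was not called (2.80 ± 0.783 and 2.87 ± 0.773 FPKM, limma adjusted p = 0.929). Under the filter, every 4H library was below every CON library for Myog and above for Tnnt3 and Ttn, with no test. The 8 fibroblast markers, 3 of which passed, summed to 195 to 199 FPKM in CON and 118 to 135 in 4H, almost all of it Cd34, which myogenic cells also express. Cd34 was lower in 4H (192.6 ± 2.42 and 120.6 ± 9.53 FPKM, limma adjusted p = 2.46e-05), while Pdgfra was higher (3.15 ± 0.288 and 5.08 ± 0.317 FPKM, adjusted p = 0.000753) and Dcn did not pass (0.876 ± 0.0685 and 1.40 ± 0.641 FPKM, adjusted p = 0.150), although every 4H library was above every CON library. The 7 macrophage markers, 2 of which passed, summed to 6.82 to 8.55 and 16.7 to 18.7 FPKM, with no overlap between the groups. Most of the sum was the lysosomal gene Cd68, which was higher in 4H (7.57 ± 0.892 and 16.4 ± 1.29 FPKM, limma adjusted p = 4.11e-05). The other that passed was Csf1r, the receptor of macrophage colony-stimulating factor, at 0, 0 and 0.0272 FPKM in the CON libraries and 1.48, 0.966 and 0.792 FPKM in the 4H libraries, which passed only through its level in 4H, so no test is given. Ptprc and Adgre1 were at 0 in every library. The 6 endothelial markers, 1 of which passed, summed to 1.31 to 1.67 and 1.22 to 1.71 FPKM, and the 1 that passed, Egfl7, was lower in 4H (1.27 ± 0.112 and 0.833 ± 0.229 FPKM, limma adjusted p = 0.0494). The myoblast, fibroblast and macrophage sums moved with the groups, and their part in the changes of the 10 genes was not tested.

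Across the 6 libraries the sum of FPKM was 395790 to 397260 in CON and 385146 to 387516 in 4H. FPKM does not keep the number of reads, so no counting error can be given, and relative depth, read from the steps of genes under 0.1 FPKM, differed by at most 1.58%. Only natural log ratios under 0.1 in size were searched, so a larger difference in depth could not have been found. Log2 values correlated at 0.9969 to 0.9976 within groups and at 0.9899 to 0.9907 between groups, and no library stood apart from its group.

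**Figure D5:**
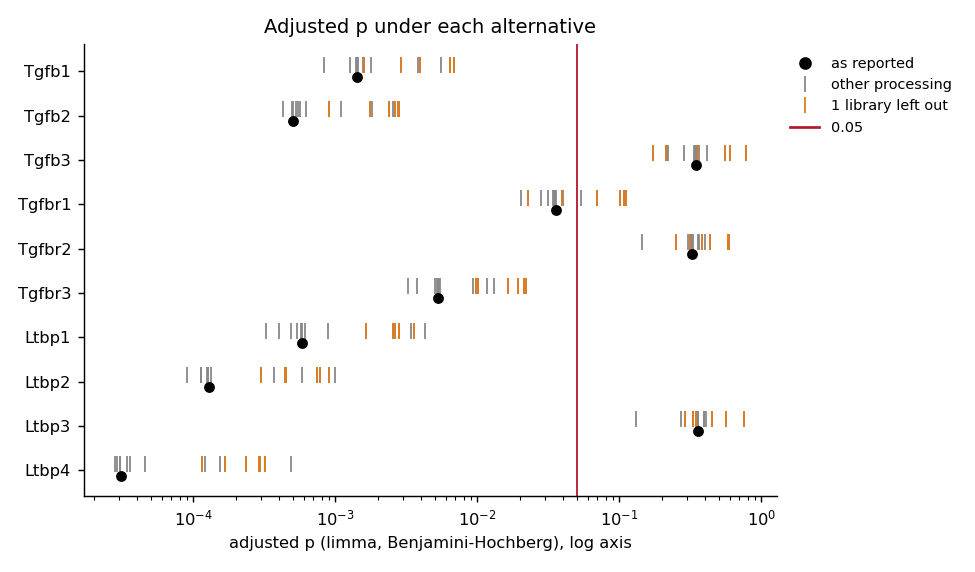
Adjusted p of limma for each of the 10 genes as reported (black) and under 16 alternatives, 10 of processing (grey) and 6 that leave out 1 library (orange), on a log axis, with a line at 0.05. Only Tgfbr1 crosses the line, with a range of 0.0202 to 0.112.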

How the data were processed

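RNA-seq was performed on poly(A) RNA of 6 C2C12 libraries, 3 CON and 3 4H, grouped by the treatment in the labels. The authors deposited 1 table of FPKM values with 1 column per library. The submitters' processing notes name the build mm10. For the aligner, the counting tool and the use of strand, the entry is: not given in the sources used here. Coordinates are those of GENCODE M21 (GRCm38), and promoter sequence is from RefSeq (GRCm38.p6). Among Ensembl identifiers, 22017 of 22128 were in GENCODE M21.

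Since FPKM values are not counts, no count model was used. Genes with a mean FPKM of 0.5 or more were fitted with limma 3.58.1 in R 4.3.3 (eBayes with trend, pseudocount 0.5), and the 11593 p-values were adjusted together. Shares and ratios were compared by exact permutation of the 6 libraries. Python 3.11.15 with SciPy 1.17.1 was used for the rest. The fit was tested on simulated data. The genes named were all 10 members, up to 3 genes per pathway list with the largest absolute log2 fold change (adjusted p of at most 0.05, mean of at least 1 FPKM), and 3 similar genes for each of 2 members. The members, lists and markers were chosen with earlier results of these data known. Alternatives covered pseudocount, filter, scaling, trend, weights, a replicate block and each library left out. The rabbit and protein data of the study were not analysed here. Not every result under the rule for named genes is reported here.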

Additional observations from a re-analysis of the deposited data

How the results depend on the processing

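Under 16 alternatives the number of the 10 genes called higher was 4 to 5, the number called lower was 2 in each, and no gene changed direction. Of the 34 single-gene results, 524 of 544 comparisons with an alternative kept their side of the threshold and 20 lost it, those of Tgfbr1 (5), Smad4 (8), Nedd4l (6) and Bmpr1b (1). For Tgfbr1 these were no filter (adjusted p = 0.0538) and the 4 omissions of a library given with its values. With a pseudocount of 0.1, 1 of the 10 genes reached an absolute log2 fold change of 1, and after rescaling to TPM also 1, Tgfb2 in both (1.02 and 1.00). Leaving out each library in turn gave 4 to 5 members higher, 2 lower and 0 past the fold threshold, and 29 to 33 other pathway genes higher and 6 to 9 lower. Tgfb2 ranged from 0.69 to 1.02 and Ltbp4 from -0.73 to -0.66 over all alternatives. Of the genes that were not called, Tgfb3 was at 0.03 without CON replicate 3, 0.06 without 4H replicate 1 and 0.15 without 4H replicate 3, Tgfbr2 at 0.04 without 4H replicate 1, and Ltbp3 at 0.02 without CON replicate 1. After rescaling to TPM, Tgfbr2 was at 0.099 and Ltbp3 at 0.087 (limma adjusted p = 0.143 and 0.130). No other scaling moved the median of all genes by over 0.1. The shares and ratios kept their direction in all 8 alternatives each, but the difference in share moved by over 1.5 times for Tgfb1 without CON replicate 2 (0.119 percentage points), CON replicate 3 (2.43), 4H replicate 1 (2.58) or 4H replicate 3 (0.684), for Tgfb3 without CON replicate 2 (-2.65), and for Ltbp1 without 4H replicate 1 (1.14).

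With a replicate block, 5 of the 10 genes were higher and 2 lower, as without it (Tgfbr1 adjusted p = 0.0317), and 31 and 8 of the other pathway genes. Among the 34 single-gene results, which do not include Furin, Col1a2, Col3a1 and Snai2, the call lost was that of Nedd4l (adjusted p = 0.0629). The block follows the biosample numbers, and deviations of libraries with the same number correlated at 0.02, -0.09 and -0.13. Deviations within a group of 3 sum to 0, so these values cannot show whether libraries shared a batch. By the titles, whose shared numbers are 1 and 3, the correlations were 0.02 and 0.18, and no fit with that pairing was made. Depth is unknown, and 3 libraries per group leave a smallest exact p of 0.1 for single values and 0.25 for paired ones.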
